A study of Mus musculus with 12 samples.

Results

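Broad acetylated domains are stretches of at least 8000 bp with acetyl groups on lysine 9 or 14 of histone H3 (H3K9/14ac), found in mouse Th17 cells. Peaks called on paired-end fragments in the 6 ChIP libraries were merged into 56643 union regions wherever they overlapped or touched. Of these, 20108 had a peak in every library, and 1221 of those were 8000 bp or wider, 6.07% of the shared regions. Another 25 regions were as wide but lacked a peak in at least 1 library and were left out. The domains were chosen by their width in the union and by a peak in each library, so neither property is a finding here. A domain can owe its width mostly to the peaks of 1 genotype. The domains measured 8002 to 71576 bp with a median of 10954 bp, 144 reached 20 kb, and together they held 17.5% of all bases in union regions.

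The KO group was 3 libraries of Th17 cells from C57BL/6 mice with a floxed Slc2a3 allele deleted by Cd4-cre, and the WT group was 3 libraries of wild-type C57BL/6 Th17 cells. Slc2a3 encodes the glucose transporter GLUT3, and the Cre transgene is driven by Cd4 regulatory sequence, which is active from thymic T cell development onward. Both groups went through 3 days of Th17 culture and then 3 h of PMA and ionomycin in the presence of brefeldin A (Bref A) and monensin. All 6 samples received barcodes inside their nuclei and shared 1 immunoprecipitation with 5 µg of antibody. Nothing states whether libraries of a genotype came from separate mice, so the spread between them may be technical.

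H3K9/14ac is placed by lysine acetyltransferases, which use acetyl-CoA, and is removed by histone deacetylases. It marks active promoters and enhancers, and most marked stretches in a genome are short. The broadest stretches usually lie over genes that define a cell's identity, where many neighbouring enhancers and a promoter merge into a single block (often called a stretch enhancer or super-enhancer). In T helper cells such blocks are known over receptor, cytokine and lineage transcription factor genes.

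Promoters inside the domains are shown first because they held fewer CG dinucleotides than promoters in narrower shared regions. The promoter windows are RefSeq sequences of GRCm38.p6 that run from 250 bases before a gene start to 50 bases after it, and 609 windows of 486 genes lay wholly inside a domain. Each is written 5′ to 3′ on the gene's strand, with every CG dinucleotide in capitals. Il2ra (chr2:11642542-11642841, plus strand) and the Map2k6 start (chr11:110398852-110399151, plus strand) lie in domains that rose in KO. Olfr525 (chr7:140322451-140322750, plus strand) lies in a domain that fell. Gpr15 (chr16:58718823-58719122, minus strand), Irf4 (chr13:30748983-30749282, plus strand) and Rbpj (chr5:53590236-53590535, plus strand) lie in domains that did not pass the test.
Il2ra: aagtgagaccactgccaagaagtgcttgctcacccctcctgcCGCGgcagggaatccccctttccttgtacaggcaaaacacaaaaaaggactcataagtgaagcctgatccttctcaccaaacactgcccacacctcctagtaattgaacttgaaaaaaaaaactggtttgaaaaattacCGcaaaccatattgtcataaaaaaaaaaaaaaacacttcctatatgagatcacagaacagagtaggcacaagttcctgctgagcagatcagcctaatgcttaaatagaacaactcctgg
Map2k6: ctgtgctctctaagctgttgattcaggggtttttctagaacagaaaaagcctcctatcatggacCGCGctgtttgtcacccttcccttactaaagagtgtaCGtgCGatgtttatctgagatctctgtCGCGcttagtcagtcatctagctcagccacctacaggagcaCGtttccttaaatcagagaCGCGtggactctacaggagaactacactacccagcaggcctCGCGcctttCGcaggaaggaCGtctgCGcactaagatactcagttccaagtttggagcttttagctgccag
Olfr525: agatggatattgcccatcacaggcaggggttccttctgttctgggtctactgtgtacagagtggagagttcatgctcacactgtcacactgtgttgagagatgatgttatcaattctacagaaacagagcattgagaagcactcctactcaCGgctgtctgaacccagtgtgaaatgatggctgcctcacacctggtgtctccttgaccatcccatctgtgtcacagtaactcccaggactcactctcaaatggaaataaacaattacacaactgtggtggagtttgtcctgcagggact
Gpr15: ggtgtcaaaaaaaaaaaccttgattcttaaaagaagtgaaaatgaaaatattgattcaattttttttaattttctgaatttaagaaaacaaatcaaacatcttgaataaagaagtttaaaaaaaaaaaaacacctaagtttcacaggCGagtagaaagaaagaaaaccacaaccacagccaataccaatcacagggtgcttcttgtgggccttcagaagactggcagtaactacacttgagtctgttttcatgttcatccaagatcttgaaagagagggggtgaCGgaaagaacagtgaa
Irf4: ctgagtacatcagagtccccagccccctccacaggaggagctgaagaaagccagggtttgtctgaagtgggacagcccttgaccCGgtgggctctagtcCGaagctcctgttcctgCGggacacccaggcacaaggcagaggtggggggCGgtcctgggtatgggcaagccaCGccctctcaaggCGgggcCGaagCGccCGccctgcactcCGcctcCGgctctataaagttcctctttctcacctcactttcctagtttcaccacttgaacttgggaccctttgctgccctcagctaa
Rbpj: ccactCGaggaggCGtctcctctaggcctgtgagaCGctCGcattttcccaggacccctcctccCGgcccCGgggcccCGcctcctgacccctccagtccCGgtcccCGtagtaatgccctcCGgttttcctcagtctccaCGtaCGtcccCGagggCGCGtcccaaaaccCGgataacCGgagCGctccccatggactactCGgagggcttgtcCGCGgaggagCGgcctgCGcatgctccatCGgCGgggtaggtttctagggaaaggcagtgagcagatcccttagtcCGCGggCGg

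The 300 bases of Il2ra held 3 CG dinucleotides, those of Gpr15 2 and that of Olfr525 a single 1. Rbpj held 28, Map2k6 14 and Irf4 11. The median was 10 CG over the 609 windows inside domains, 22 over the 9213 windows inside narrower shared regions and 7 over all 32851 windows. At least 15 CG were found in 42.5% of windows in domains, against 75.3% in narrower shared regions and 34.6% of all windows.

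Short motifs were searched on both strands of the same windows, with N standing for any base, and none contains another. CCGGAAGT, an ETS-type motif, was present in 1.97% of windows in domains, 10.2% in narrower shared regions and 3.89% of all windows. TGANTCA, the AP-1 motif, was in 6.08% of windows in domains, 4.53% in narrower shared regions and 7.81% of all, including Gpr15 and Map2k6 above. The CREB motif TGACGTCA was found in 1.48%, 3.65% and 1.79% of the same 3 sets. TATAAA was in 7.22%, 6.31% and 13.6%, and in Irf4 it began 26 bases before the start. These shares are counts of letters in fixed windows and were not tested.

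The domains also held 11 of the 1005 miRNA hairpins of RefSeq, among them Mir21a, a miRNA induced in activated T cells (chr11:86584067-86584158, minus strand). It is shown with its seed (bases 2 to 8) in capitals because it is the best studied of the 11.
mmu-miR-21a-5p: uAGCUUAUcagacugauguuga
mmu-miR-21a-3p: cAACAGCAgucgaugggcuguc

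The 15146 bp domain over Mir21a and the end of Vmp1 was covered over 84.7%, 93.3% and 95.1% of its length in the 3 KO libraries, in 3 peaks each, against 99.4%, 100% and 99.3% in the 3 WT libraries, in single peaks. Every KO library was below every WT library, and the log2 difference of covered bases was -0.13 ± 0.05 (SE, limma adjusted p = 0.13).

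Within a domain, the covered share is the percentage of its bases that lie in a library's peaks. KO libraries covered a median of 81.5%, 86.6% and 83.0% of a domain, and WT libraries 94.1%, 91.7% and 91.7%. The means were 83.7% ± 2.63 in KO and 92.5% ± 1.36 in WT (SD, n = 3 each), a difference of -8.78 percentage points. No KO library reached the lowest WT library. The domains were also more broken up in KO, with a mean of 3.31, 2.90 and 3.22 separate peaks per domain in the KO libraries, against 2.19, 2.46 and 2.48 in the WT libraries. The mean peak number was 3.14 ± 0.216 in KO and 2.38 ± 0.161 in WT (SD, n = 3 each).

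Domains with a single peak, whether it filled the domain or only a small piece of it, numbered 171, 270 and 223 in the KO libraries and 462, 360 and 350 in the WT libraries. The longest peak of a domain spanned a median of 51.4%, 59.8% and 52.8% of it in KO, and 80.1%, 70.8% and 68.6% in WT. Gaps between neighbouring peaks of a domain had medians of 440 to 447 bp in KO and 399 to 404 bp in WT. Gaps over 1 kb made up 16.8% to 19.0% of all gaps in KO and 9.35% to 10.7% in WT. With the peaks called on single reads, in place of fragments, the mean peak number was 7.37 in KO and 7.46 in WT, a difference of -0.09 in the other direction, while the covered share kept its difference at -9.58 points.

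Depth moved with these measures. Mean fragment coverage, recovered from the heights and p-values of the peaks, was 1.85, 2.29 and 1.92 in the KO libraries, and 3.99, 3.48 and 2.97 in the WT libraries. The 6 libraries stand in the same order by coverage as by median covered share, so genotype and depth cannot be told apart in either measure. Whether the lower depth in KO is itself part of a genotype difference was not tested. Over Slc2a3, which carries no broad domain, the 7 union regions were covered over 3822, 5427 and 6128 bp in KO, against 12507, 12443 and 12461 bp in WT. Peaks on chromosome Y numbered 2, 1 and 11 in KO and 1 each in WT. Xist had 2573, 2618 and 0 covered bp in KO against 2528 to 2691 bp in WT. KO replicate 3 thus has the signal of male cells and the other libraries that of female cells, though the labels give no sex. Without KO replicate 3 the covered share differed by -8.41 points and the peak number by 0.73.

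**Figure D1:**
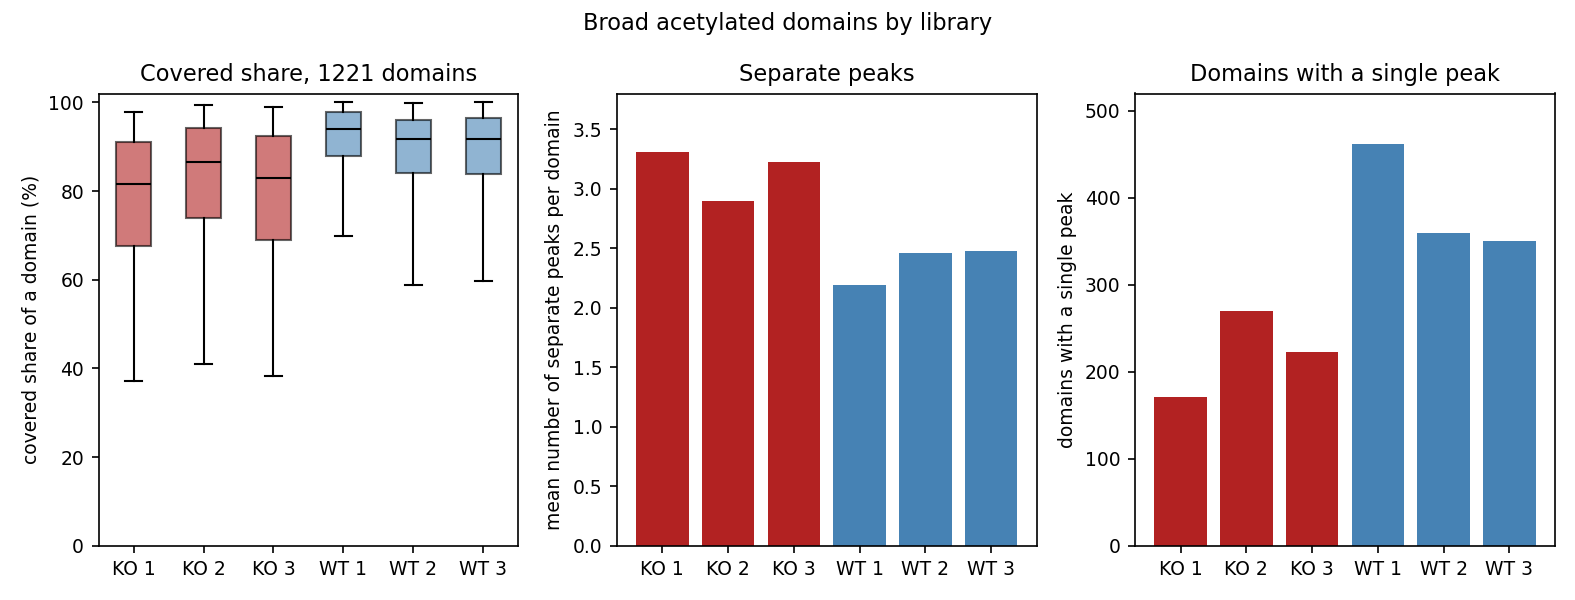
Covered share of the 1221 domains (boxes span the quartiles, the line is the median, whiskers the 5th and 95th percentiles), mean number of separate peaks per domain, and number of domains with a single peak of any length, for the 3 KO and the 3 WT libraries. Medians are 81.5% to 86.6% in KO and 91.7% to 94.1% in WT, and single-peak domains number 171 to 270 in KO and 350 to 462 in WT.

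Width classes of the shared regions were compared to place the domains beside narrower regions. The difference in median covered share, KO minus WT, was -15.7 points in regions under 2 kb, -11.5 at 4 to 8 kb, -8.94 at 8 to 12 kb and -3.92 at 20 kb or more. The ratio of mean peak numbers, KO over WT, was 1.01 under 2 kb, 1.12 at 4 to 8 kb, 1.23 at 8 to 12 kb, 1.39 at 12 to 20 kb and 1.49 at 20 kb or more. The widest domains thus had the smallest difference in covered share and the largest in peak number. Domains held 23.8% ± 0.398 of all peak bases in KO and 22.1% ± 0.543 in WT (SD, n = 3 each). A wide region can hold more peaks than a narrow one by its length, and the difference between width classes was not tested.

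**Figure D2:**
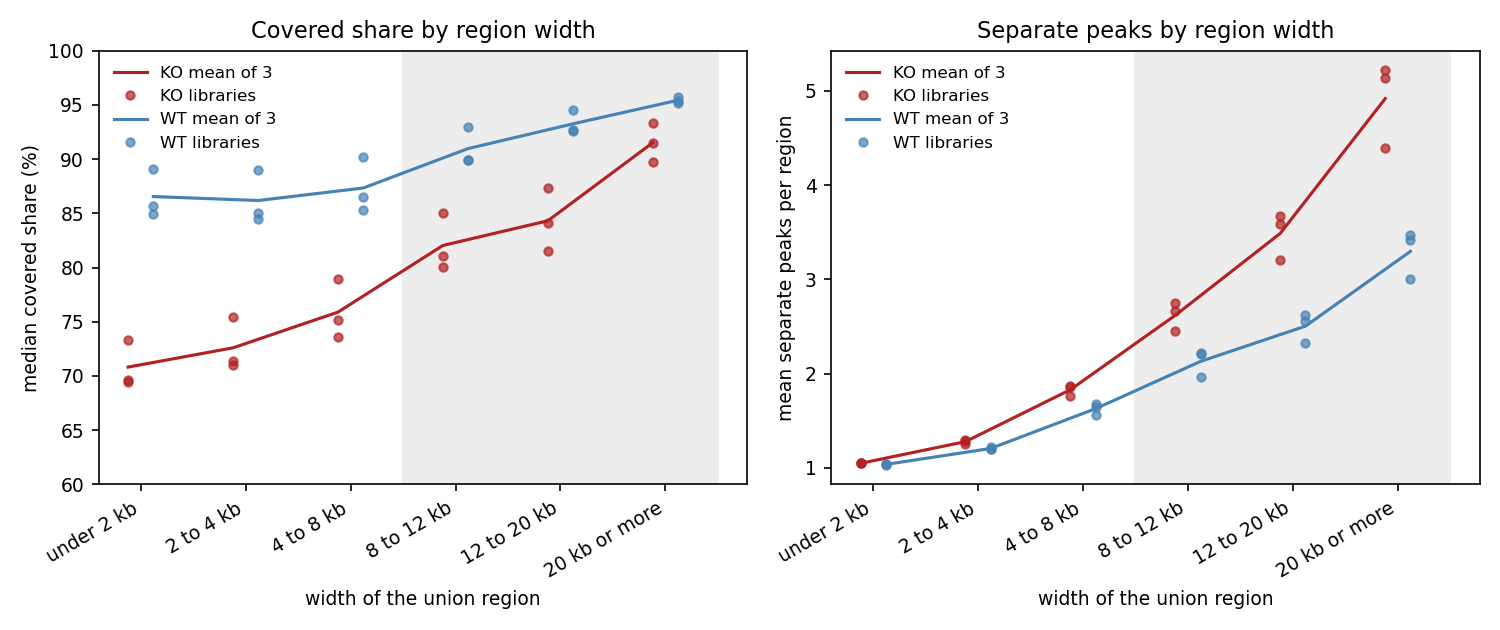
Median covered share (left) and mean number of separate peaks (right) in 6 width classes of the shared regions, with a point per library and lines for the means of 3 KO and 3 WT libraries. Grey marks the classes of 8 kb or more, where KO covers a median of 82.0% at 8 to 12 kb and 91.5% at 20 kb or more, against 91.0% and 95.4% in WT.

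The base-by-base comparison showed where in a domain the libraries differed. Of the 16.6 Mb in domains, 65.0% was covered in all 6 libraries. Another 207 kb (1.25%) was covered in all 3 KO and no WT library, and 838 kb (5.06%) in all 3 WT and no KO library. In the outermost 250 bp, KO libraries covered 40.7% ± 3.84 and WT libraries 57.0% ± 3.54 (SD, n = 3 each), a difference of -16.3 points. More than 8 kb from an edge the shares were 90.2% ± 1.25 in KO and 95.9% ± 0.261 in WT, a difference of -5.72 points. The edges are those of the union, set by whichever library reached farthest.

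In 52 domains (4.26%) every KO library had 2 or more peaks and every WT library a single peak. In 11 domains (0.901%) every KO library had a single peak and every WT library 2 or more. In 28 domains all 6 libraries had a single peak, and in 402 all had 2 or more. The shares of these patterns over all shared regions were not computed. Every KO library had more peaks than every WT library in 214 domains (17.5%, against 2.81% of all 20108 shared regions) and fewer in 41 (3.36%, against 0.706% of shared regions).

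The covered bases of every shared region were tested with limma on the log2 scale, with p-values adjusted by Benjamini-Hochberg over all 20108 regions. Covered bases fell in KO in 345 domains (28.3%, against 14.7% of shared regions) and rose in 75 (6.14%, against 2.68%), at an adjusted p under 0.05. The width rule draws on the same peaks as this test, and the adjusted p-values take no account of that. The covered bases did not overlap between genotypes in 583 domains with every KO library below (47.7%, against 35.5%) and in 139 with every KO library above (11.4%, against 6.48%). In bulk libraries, fewer cells with a domain and less acetylation per cell cannot be told apart. The median log2 difference was -0.12 over the domains and -0.20 over all shared regions. Centring each library on its own median adds the same amount to the log2 difference of every region. It left 146 domains that fell, all among the 345, out of 1195 falls in the 20108 shared regions. It gave 400 domains that rose, out of 1689 rises in the shared regions. All 75 that rose were also among the 400. The split between falls and rises therefore depends on the scaling, whereas no called domain changed direction with a call. The count of falls dropped to 173, 141 and 153 without WT replicate 1, 2 and 3, and the count of rises to 40 and 44 without KO replicate 2 and 3, and to 33 and 37 without WT replicate 2 and 3.

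A domain overlapped 712 of 21887 protein-coding genes, 3.25%. Among 32 genes of T cell identity and receptor signalling, 22 overlapped 1, as did 14 of 27 Th17 genes. So did 16 of 33 lymphocyte transcription factor genes and 16 of 37 genes listed as induced early by stimulation. Of the other lists, 2 of 26 genes of glucose uptake and glycolysis, 2 of 28 of acetyl-CoA supply and histone acetylation and 1 of 20 housekeeping genes (Actb) did so. Genes in these lists differ in length, which was not matched. The T cell receptor complex genes Cd3d and Cd3g shared a domain, and Cd247 had 2 of its own. Of the markers of other cell types, 0 of 10 CD8 T and NK cell genes, 0 of 12 myeloid genes, 0 of 8 erythroid genes and 1 of 10 B cell genes overlapped a domain. The B cell gene was Cd79a, in a domain that also holds promoters of Arhgef1.

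**Figure D3:**
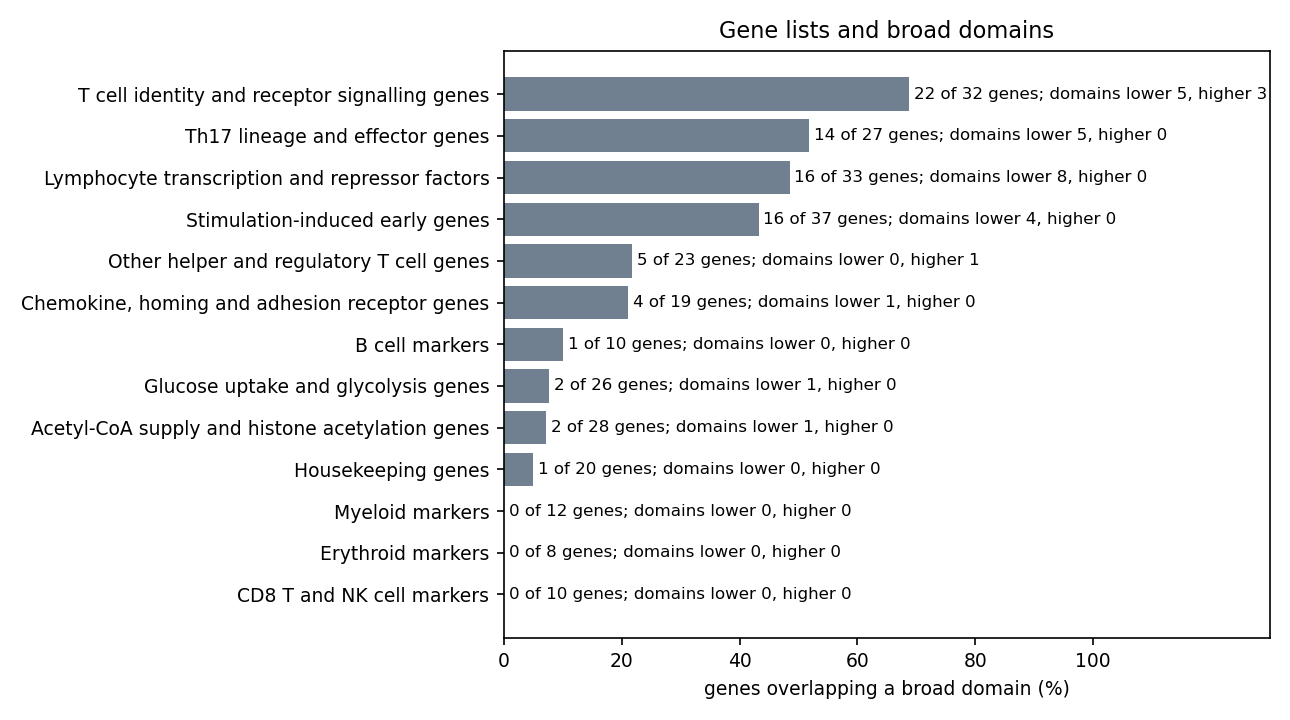
Percentage of the genes of 13 lists that overlap a broad domain, with the number of genes and of domains lower or higher in KO by limma beside each bar. T cell identity genes reach 22 of 32 and Th17 genes 14 of 27, and the CD8 T and NK, myeloid and erythroid markers are at 0.

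The widest domain, at 71576 bp, lay 63.0 kb from Tomm20 over the lncRNA gene A630001O12Rik (chr8:126796085-126867660) and was covered over 99.5%, 99.1% and 99.6% in KO and 99.2%, 98.6% and 99.1% in WT. A 61446 bp domain inside Bach2, a repressor that restrains effector T cell differentiation, was covered over 95.5%, 98.4% and 97.3% in KO and 97.6%, 96.9% and 97.2% in WT. Both genotypes overlapped in these 2 domains, with log2 differences of 0.01 (limma adjusted p = 0.76) and -0.00 (adjusted p = 0.93). A 55120 bp domain over the joining segments of the T cell receptor alpha locus Tcra was a single peak in every KO library, and 1, 1 and 2 peaks in WT. The domains of Bhlhe40, a factor needed for T helper cytokine production, and Irf4, required for Th17 differentiation, spanned 52959 and 45507 bp, with log2 differences of -0.01 (adjusted p = 0.69) and 0.00 (adjusted p = 0.94). After centring, the domains near Tomm20, over Tcra, Bhlhe40 and Irf4 and the 61446 bp Bach2 domain stood at 0.25 to 0.27 (adjusted p = 0.0071 to 0.022). Centring adds the same amount to the difference of every region. These differences were near 0 before it, so the centred values are close to that amount alone.

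Among the Th17 lineage genes, 17 domains lay over 14 genes, of which 5 fell (29.4%, against 28.3% of all domains), none rose and 12 did not pass the limma test. Their median log2 difference was -0.10, against -0.12 over all domains. Within this list, the largest fall over a cytokine gene was at Il17a, the signature cytokine of these cells (chr1:20723030-20740458). This 17429 bp domain was covered over 32.7%, 38.7% and 39.2% in KO, in 6, 7 and 7 separate peaks, and over 100%, 90.7% and 93.7% in WT, in 1, 3 and 3 peaks. No KO library came near a WT library, and the log2 difference was -1.37 ± 0.08 (SE, limma adjusted p = 0.0022). Every KO library covered fewer than 8000 bp of it, at 5700, 6746 and 6837 bp. The width rule thus selected this domain through WT, and the adjusted p-value takes no account of that. A chain of 2 falling domains at or near Il2 and Il21 (chr3:37148745-37215234) reached -1.93. The 14281 bp domain over Il21 itself (chr3:37223698-37237978) lay outside this chain and did not pass. It was covered over 79.8%, 93.6% and 81.4% in KO and 89.7%, 84.1% and 87.1% in WT (log2 difference -0.04, limma adjusted p = 0.73).

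Rora, which encodes a nuclear receptor that promotes Th17 differentiation, carried 2 domains and both fell. Its 8032 bp domain was covered over 10.4%, 13.2% and 16.9% in KO, against 99.1%, 76.8% and 85.6% in WT (log2 difference -2.71 ± 0.20, limma adjusted p = 0.0030). Il21r, the receptor of the Th17 growth factor IL-21, fell by a small amount (log2 difference -0.16, limma adjusted p = 0.032). It is 0.10 after centring, and the call was lost without KO replicate 2 or 3 or any 1 WT library (adjusted p = 0.0631 to 0.0913). The call of the 11153 bp Rora domain was lost without any 1 WT library (adjusted p = 0.0516 to 0.0615).

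Rbpj, the DNA-binding partner of Notch signalling, lay at the end of a chain of 4 domains that fell, spread over 188 kb. The 60106 bp domain 92.7 kb upstream of it (chr5:53402987-53463092) was split in KO into 11, 9 and 12 peaks that covered 91.9%, 90.8% and 90.0%. In all 3 WT libraries it was an unbroken peak, covering 99.9%, 99.9% and 100% of it. The log2 difference was only -0.14 ± 0.02 (limma adjusted p = 0.0077), so the number of peaks separated the genotypes more than the covered length. The 48960 bp domain over the gene end was covered over 81.2%, 85.4% and 84.9% in KO and 95.0%, 94.4% and 94.6% in WT (log2 difference -0.18, adjusted p = 0.012). With libraries centred on their medians both differences are above 0 (0.13 and 0.09) and neither passes. The second call was also lost without WT replicate 2 or 3 (adjusted p = 0.0543 and 0.0520).

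Of 34 domains over T cell identity genes, 5 fell (14.7%, against 28.3% of all domains), 3 rose (8.82%, against 6.14%) and 26 did not pass. Cd247, which encodes the signalling zeta chain of the T cell receptor, had 2 domains that fell. The wider, of 12317 bp, was covered over 41.9%, 47.4% and 49.2% in KO and 91.7%, 96.6% and 100% in WT (log2 difference -1.06 ± 0.07, limma adjusted p = 0.0026). Zap70, the kinase that binds phosphorylated zeta chains, had 70.8%, 81.9% and 81.8% covered in KO and 99.8%, 99.2% and 98.7% in WT (log2 difference -0.35, adjusted p = 0.025). The narrower Cd247 domain lost its call without WT replicate 2 or 3 (adjusted p = 0.0599 and 0.0525), and Zap70 without any 1 WT library (0.0758 to 0.0842). The other 2 falls were at Lef1, of 0.43 and 0.15 on the log2 scale. The first lost its call without any 1 of the 6 libraries (adjusted p = 0.0653 to 0.102). The second is 0.11 after centring and lost its call without KO replicate 1 or 3 or any 1 WT library (0.0507 to 0.0882). Of the 25 list domains that fell, 5 also fell after centring: Il17a, both of Rora and both of Cd247. In all 5, every KO library covered fewer than 8000 bp, and the width came mostly from WT peaks. The width rule thus selected them through WT, and neither their adjusted p-values nor the centring takes account of that.

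The rises in this list were at Ptprc and Cd4. Ptprc encodes CD45, a phosphatase that sets the threshold of receptor signalling. Its 9479 bp domain was covered over 93.9%, 85.1% and 91.6% in KO, against 48.9%, 58.9% and 59.2% in WT, with 1, 2 and 2 peaks in KO and 5, 4 and 4 in WT (log2 difference 0.70 ± 0.09, limma adjusted p = 0.0098). Its 35412 bp domain was covered over 100%, 98.9% and 99.4% in KO and 92.4%, 92.9% and 93.9% in WT (log2 difference 0.10, adjusted p = 0.026). The call of this wider domain was lost without KO replicate 3 (adjusted p = 0.0504) or any 1 WT library (0.0688 to 0.0875). The Cd4 domain of 9447 bp was covered over 94.7% in each KO library and 67.0%, 65.2% and 71.5% in WT (log2 difference 0.48 ± 0.05, adjusted p = 0.0049). The single region of the authors' deposited table in it has a log2 fold change of 6.77. Every WT library covered fewer than 8000 bp of the Cd4 domain and of the 9479 bp Ptprc domain, and every KO library more. The width rule thus selected these domains through KO, and the adjusted p-values take no account of that. The KO mice carry the Cd4-cre transgene, so signal from Cd4 sequence in the transgene and from the gene itself cannot be told apart.

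The 26 domains over 16 lymphocyte transcription factor genes held 8 that fell (30.8%, against 28.3% of all domains) and none that rose, and 18 did not pass. Stat5b and Stat4, which carry cytokine signals to the nucleus, fell by 0.38 and 0.35 on the log2 scale (limma adjusted p = 0.025 and 0.026). Nfatc1 and Nfatc3, the calcium-driven factors that ionomycin activates, fell by 0.31 and 0.53 (both adjusted p = 0.014). The Nfatc3 domain was covered over 69.8%, 69.6% and 58.3% in KO and 97.3%, 96.0% and 91.9% in WT. Ikzf1 and Runx1 fell by 0.25 and 0.13 (adjusted p = 0.022 and 0.036), as did Foxp1 and Bach2 at 1 of 4 and 1 of 6 domains. The falls at Ikzf1, Runx1, Foxp1 and Bach2 lie above 0 once libraries are centred, and the other 4 no longer pass. Without WT replicate 1 or 2 every call but Nfatc1 was lost (adjusted p = 0.0520 to 0.119), and without WT replicate 3 every call but Nfatc1 and Foxp1 (0.05005 to 0.104). Calls were also lost without KO replicate 1 (Ikzf1, Bach2, Foxp1), 2 (Stat5b, Stat4, Runx1, Foxp1) or 3 (Stat5b, Runx1, Bach2, Foxp1), at adjusted p of 0.0537 to 0.0931.

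The list of stimulation-induced early genes had 16 domains, of which 4 fell (25.0%, against 28.3% of all domains), none rose and 12 did not pass. Induction of these genes was not measured here. The falls were at Tnf, Nfkb1, Nr4a3 and Zfp36, an mRNA decay factor that limits cytokine messages. The Tnf domain of 15941 bp, which also spans Ltb, was covered over 81.8%, 70.9% and 81.9% in KO and 97.1%, 97.8% and 100% in WT (log2 difference -0.33 ± 0.06, limma adjusted p = 0.025). All 4 calls were lost after centring and without any 1 WT library (adjusted p = 0.0676 to 0.134 without a WT library). Without KO libraries, Zfp36 lost its call for replicates 1 and 2, and Nfkb1 and Nr4a3 for replicates 2 and 3 (0.0537 to 0.105). Cd69, an activation marker, had 74.4%, 85.2% and 90.3% covered in 4, 3 and 2 peaks in KO, and 98.0%, 97.5% and 99.4% in single peaks in WT. Its groups did not overlap, but the test did not pass (adjusted p = 0.075). Junb, an AP-1 subunit, had a log2 difference of -0.01 (limma adjusted p = 0.71). The amount that centring adds to every region moves it to 0.25 (adjusted p = 0.016).

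Genes of other helper and regulatory T cells had 4 domains, with 1 rise (25.0%, against 6.14% of all domains). Il2ra, the alpha chain of the IL-2 receptor (CD25) and the promoter shown above, was covered as a single peak over 98.0%, 100% and 100% of 27674 bp in KO. In WT it was 4 peaks in each library over 88.0%, 86.1% and 86.3%. The log2 difference was 0.20 ± 0.02 (limma adjusted p = 0.0074). The domains over Ctla4, Ikzf2 and the pair Tnfrsf4 and Tnfrsf18 did not pass, with log2 differences between -0.02 and 0.02. With the amount that centring adds to every region, the Ctla4 domain stood at 0.28 (adjusted p = 0.0099). The shared Tnfrsf4 and Tnfrsf18 domain stood at 0.24 (adjusted p = 0.042). Of the 4 chemokine and adhesion receptor domains, 1 fell (25.0%, against 28.3% of all domains). This was Cd226, by 0.40 (limma adjusted p = 0.010, and 0.117 after centring), while Cxcr3 and Selplg did not pass.

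Few metabolic genes lay under a domain. Of the glycolysis genes, Eno3, the muscle enolase, shared a 12190 bp domain with Pfn1, Rnf167 and Slc25a11 that was covered over 69.1%, 70.3% and 74.9% in KO and 91.4%, 96.6% and 97.5% in WT (log2 difference -0.41 ± 0.05, limma adjusted p = 0.0074, and 0.184 after centring). Pfkp, a phosphofructokinase, had 87.6%, 85.6% and 84.6% in KO and 96.8%, 89.1% and 91.7% in WT, which did not pass (adjusted p = 0.15). Hdac7, a class IIa deacetylase, had 1 domain that fell (log2 difference -0.46, adjusted p = 0.011) and a neighbouring 1 that did not pass (-0.02, adjusted p = 0.65). The fall lost its call after centring (adjusted p = 0.128) and without WT replicate 2 (0.0517), and the neighbour is 0.25 after centring (0.017). The Hdac4 domain did not pass (-0.04, adjusted p = 0.76).

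The deepest losses lay mostly outside list genes. The domain 24.0 kb from Agfg1 was covered over 16.2%, 6.28% and 16.6% in KO and 88.6%, 75.3% and 95.7% in WT (log2 difference -2.85 ± 0.40, limma adjusted p = 0.012, and 0.0501 and 0.0520 without WT replicate 2 and 3). A domain 28.4 kb from Cd28, the main costimulatory receptor, was covered over 13.6%, 21.2% and 10.0% in KO and 94.1%, 93.0% and 94.9% in WT (log2 difference -2.72 ± 0.27, adjusted p = 0.0051), while the 2 domains over Cd28 itself did not pass. Domains near Lrmp and inside Hecw2 fell by 2.57 and 2.48 on the log2 scale (adjusted p = 0.0019 and 0.0010). In each of these 4 domains the highest KO library covered less than 22% and the lowest WT library more than 72%. The width of these 4, and of the 8032 bp Rora domain, thus came mostly from WT peaks. The width rule selected them through WT, and the adjusted p-values take no account of that.

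After the domain upstream of Rbpj, the named domains with the most added peaks were at F13a1 and in the distal Myc region. A 43052 bp domain at F13a1, the A subunit of coagulation factor XIII, had 17, 19 and 19 peaks in KO and 9, 7 and 13 in WT, over 43.7%, 58.2% and 40.3% in KO and 87.0%, 92.4% and 87.6% in WT. Its fall (log2 difference -0.93, limma adjusted p = 0.013) lost the call without WT replicate 2 or 3 (adjusted p = 0.0597 and 0.0544). The 40137 bp domain at chr15:62787559-62827695, 797 kb from its nearest gene Myc, had 9, 9 and 12 peaks in KO and 2, 2 and 1 in WT. It was covered over 59.5%, 64.6% and 59.1% in KO and 98.3%, 97.4% and 100% in WT (log2 difference -0.69 ± 0.04, limma adjusted p = 0.0019). Inside Atxn1 a domain had 9, 11 and 11 peaks in KO and 2, 3 and 2 in WT, with a log2 difference of -0.19 (adjusted p = 0.0093) that is 0.07 after centring.

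Among the largest gains were 3 neighbouring domains on chromosome 2, all inside Morrbid, a lncRNA gene whose transcript represses the death gene Bcl2l11 (BIM) in mouse myeloid cells. The widest, of 25155 bp (chr2:128372437-128397591), was covered over 91.9%, 96.4% and 84.8% in KO and 5.80%, 5.97% and 5.19% in WT (log2 difference 4.01 ± 0.08, limma adjusted p = 1.6e-04). The 10194 bp domain, 153 kb from Bcl2l11, was covered over 83.7%, 99.8% and 74.1% in KO and 6.83%, 6.83% and 3.53% in WT (log2 difference 3.96 ± 0.29, adjusted p = 0.0030). In the third, of 10580 bp, the shares were 93.3%, 95.0% and 82.7% in KO and 5.47%, 8.23% and 11.0% in WT (log2 difference 3.51 ± 0.26, adjusted p = 0.0030). In all 3, WT libraries had 1 or 2 short peaks.

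Sox6, a transcription factor gene best known from muscle, cartilage and red cell development, gained in 2 domains. The 1 at its gene end (11408 bp) was covered over 97.1%, 99.9% and 86.9% in KO and 11.1%, 4.65% and 8.29% in WT (log2 difference 3.65 ± 0.32, limma adjusted p = 0.0039). The 1 at 11.8 kb from it had 99.7%, 96.9% and 86.8% in KO and 12.1%, 7.84% and 15.6% in WT (3.05 ± 0.25, adjusted p = 0.0037). KO replicate 3 was the lowest of the KO libraries in each of these 5 domains, at 74.1% or more. The width of these 5 came mostly from KO peaks. The width rule thus selected them through KO, and the adjusted p-values take no account of that.

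Map2k6, the kinase MKK6 that activates p38, had its gain in a domain of 60914 bp that WT also carried. It was covered over 97.9%, 97.9% and 96.9% in 4 peaks in each KO library, and over 79.8%, 72.8% and 70.9% in 11, 10 and 9 peaks in WT (log2 difference 0.39 ± 0.05, limma adjusted p = 0.0077). The domain over its first start, whose promoter is printed above, rose by 1.04 on the log2 scale. In Exoc2 a 45200 bp domain had 8, 6 and 5 peaks in KO and 10, 13 and 13 in WT (log2 difference 0.19, adjusted p = 0.041), a call lost without any 1 of the 6 libraries (adjusted p = 0.0620 to 0.102). Domains near Nfkbiz, near Dlk1 and inside Prkch had fewer peaks in every KO library than in any WT library, but their covered bases did not pass (limma adjusted p = 0.055, 0.085 and 0.091). The Gpr15 domain, over a gut homing receptor gene, had 5, 1 and 5 peaks in KO and 2, 8 and 10 in WT and did not pass (adjusted p = 0.088). After centring all 4 rose (adjusted p = 0.0024 to 0.028), and without WT replicate 1 those of Dlk1, Prkch and Gpr15 did (0.0153 to 0.0262).

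**Figure D4:**
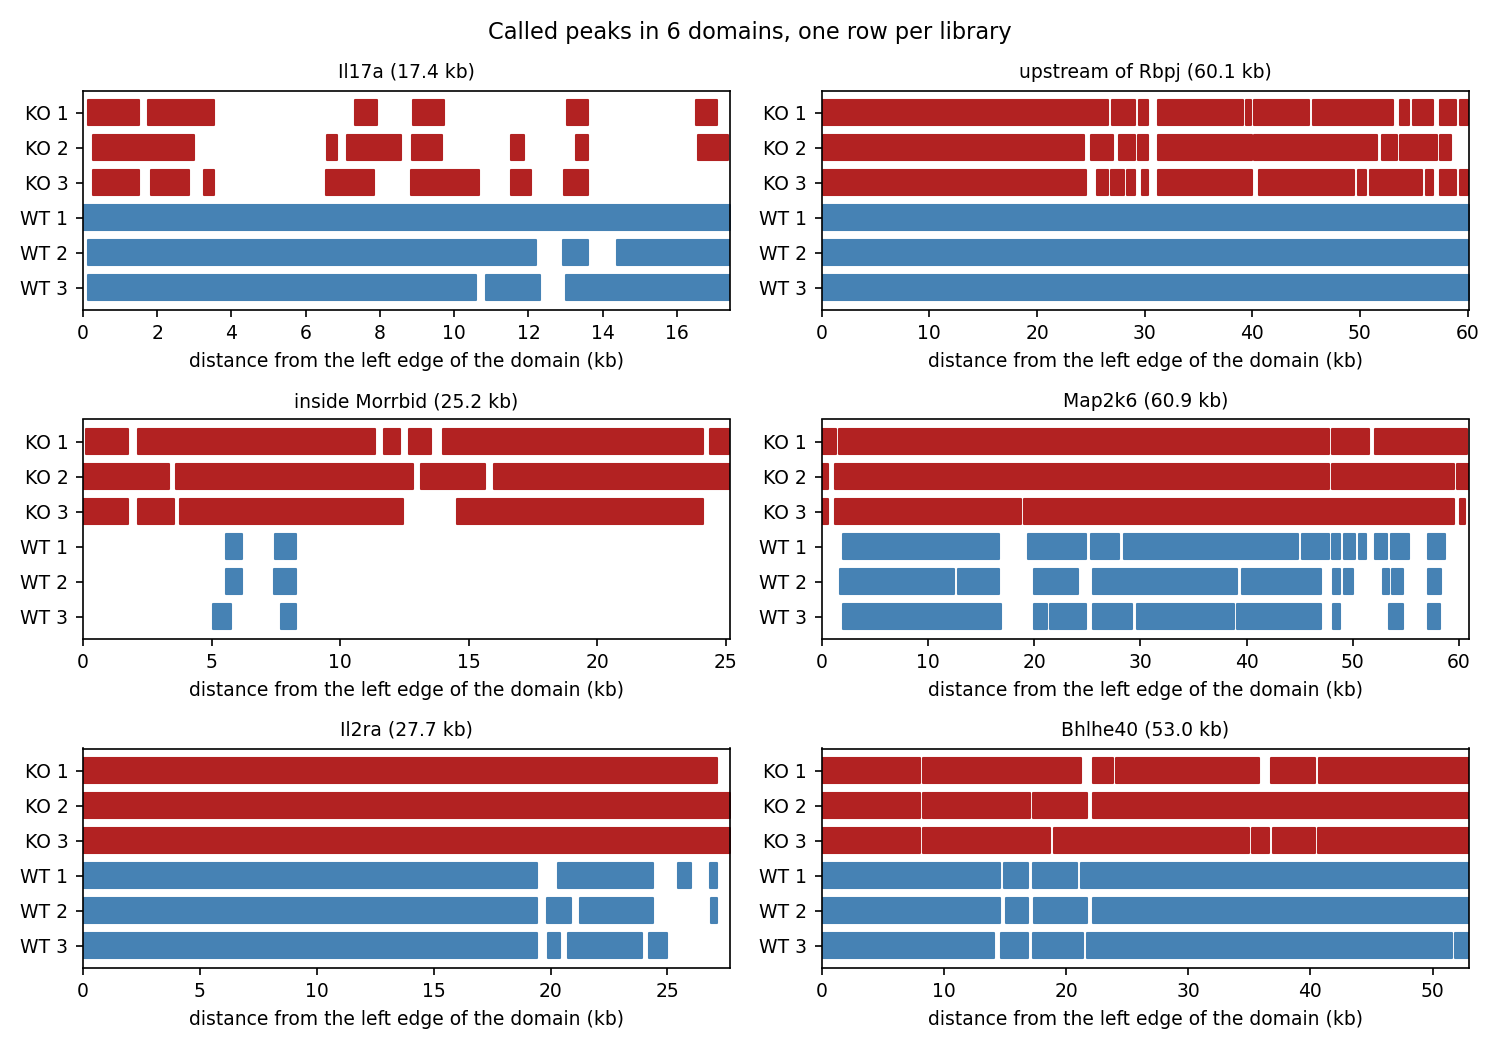
Called peaks in 6 domains, one row per library (3 KO rows above 3 WT rows), against the distance from the left edge of the domain in kb. At Il17a KO peaks cover 32.7% to 39.2% and WT peaks 90.7% to 100%, the domain near Rbpj has 9 to 12 KO peaks and 1 WT peak, and the Morrbid, Map2k6 and Il2ra domains are fuller in KO.

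Some domains of the same direction lay near each other. Chains of 2 or more falling domains no more than 100 kb apart held 139 of the 345, and chains of rising domains held 13 of the 75. The longest chains of falls had 6 domains each. The first ran over 311 kb of chromosome 10 from Zc3h12d, which encodes an RNase-like regulator of T cell messages, to Tab2 and Ust, and the second over 153 kb of the X chromosome near Tmsb4x and Tlr8. Others held 5 domains in the distal Myc region, 4 at Rbpj and 3 at Cd40lg, the CD40 ligand gene. Chains were looked at after the calls were known, and how often any domains lie this close was not computed.

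Wwox, a long gene at a common fragile site, held 8 domains that covered 101 kb in KO and 125 kb in WT, with 3 falls. Hivep2, a zinc finger gene, held 5 domains with 3 falls, and Ube2cbp 5 with 4 falls. Of all domains 28.3% fell. Other genes with several domains had fewer falls, such as Itpr1 with 0 in 6 domains and Hivep3 with 1 in 5. Bach2 and Bcl2, the survival gene, held 6 each, with 1 and 0 falls. The covered length was 167 kb in KO against 173 kb in WT at Bach2, and 78.2 kb in KO against 76.2 kb in WT at Bcl2.

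The annotation gave gene spans without exons, so domains were sorted by whether they hold a gene end (393), lie inside a gene body (406) or lie outside genes (422). Falls made up 26.2% of the first, 25.9% of the second and 32.5% of the third, and rises 5.09%, 6.65% and 6.64%. The median covered share was 86.6% in KO and 93.8% in WT at gene ends, and 81.3% in KO and 92.4% in WT outside genes. On the X chromosome 16 of 30 domains fell and none rose, while 329 of 1191 autosomal domains fell and 75 rose. Their median covered share was 70.3%, 76.7% and 75.2% in KO and 95.7%, 91.7% and 92.3% in WT. On autosomes it was 81.8%, 87.0% and 83.2% in KO and 94.0%, 91.7% and 91.6% in WT. KO replicate 3, the library with 11 chromosome Y peaks, lay between the other KO libraries in both sets.

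Signal within the domains was read from the authors' deposited table, which gives a log2 fold change, KO over WT, for regions built of 150 bp windows. Of the 4261 regions in domains, 1984 were lower (46.6%, against 46.3% of all regions) and 499 higher (11.7%, against 12.7%) at an FDR under 0.05 in the authors' deposited table. The median log2 fold change was -0.64 in domains and -0.62 over all regions of the authors' deposited table. Regions were all lower in 392 domains and all higher in 94, and 36 domains held both lower and higher regions in the authors' deposited table.

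Across the 1221 domains Spearman's rho between the log2 difference of covered bases and the median log2 fold change of the authors' deposited table was 0.84. This is a description over domains of the same 6 libraries, not over replicates. The 52 domains with several peaks in KO and a single peak in WT had a median of -1.10 in the authors' deposited table, the 11 with the opposite pattern 0.94, and the 28 with a single peak in all libraries -0.42. At Il17a all 5 regions were lower, with a median of -1.90 in the authors' deposited table. At the 25155 bp Morrbid domain all 8 regions were higher with a median of 2.69, and at the 60914 bp Map2k6 domain all 11 were higher with a median of 1.90, in the authors' deposited table. The domain near Rbpj that WT libraries held unbroken had 5 of 5 regions lower (median -1.48) and the 47352 bp Bach2 domain 5 of 6 (median -0.75) in the authors' deposited table.

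**Figure D5:**
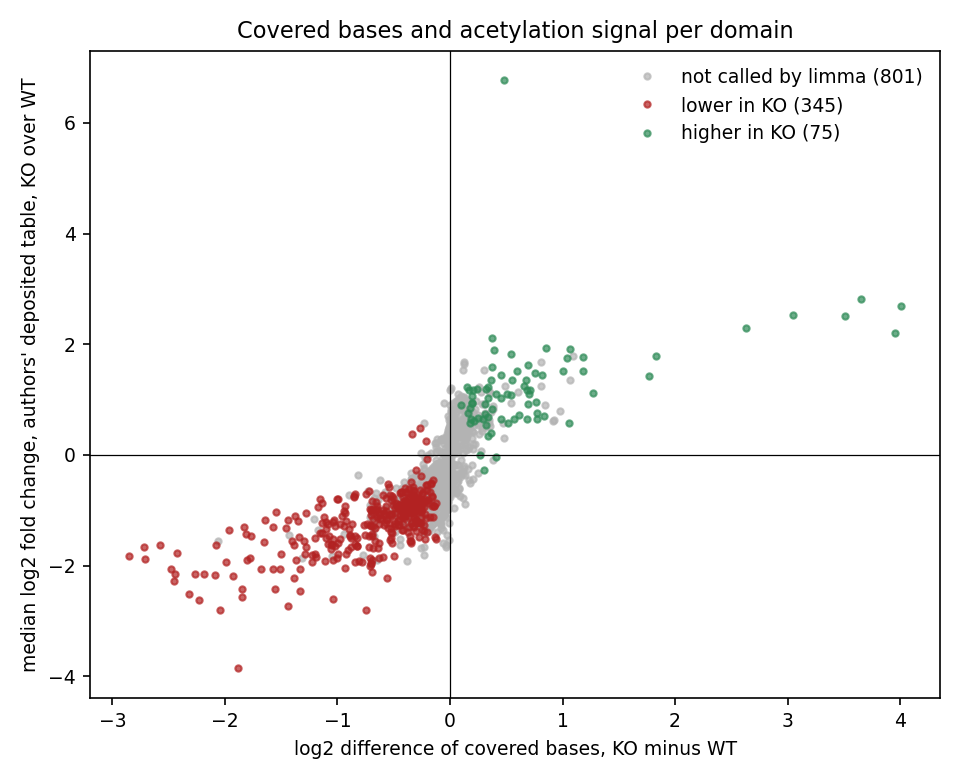
Log2 difference of covered bases, KO minus WT (horizontal), against the median log2 fold change of the regions in the authors' deposited table (vertical), with a point for each of the 1221 domains. The 345 domains that fell by limma lie mostly at lower left, the 75 that rose mostly at upper right, and the Cd4 domain stands highest at 6.77.

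At the width threshold, the domains just inside measured 8002, 8015 and 8018 bp and the regions just outside 7994, 7995 and 7996 bp. The first of those inside, at Mbp, was covered over 5557, 6070 and 5714 bp in KO and 7108, 7482 and 5080 bp in WT. The first of those outside, at Ptpn6, was covered over 6554, 5488 and 5072 bp in KO and 6596, 7710 and 7994 bp in WT.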

How the data were processed

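Per the submitters' processing notes, MACS2 2.2.6, deepTools 3.3.2, Bowtie2 2.3.5.1, cutadapt 2.8 and bcl2fastq 2.20.0.422 were used, and the genome was mm10 (GRCm38). Peaks were called by library, with no statement on whether the input libraries served as control. Inputs were not analysed here. In the deposited MACS2 lists each peak has the authors' own score, its fold enrichment (a ratio) and the −log10 of its p-value and its q-value, which here rank or filter peaks only within a list. The authors' deposited table holds, for each region, a p-value, an FDR and the log2 fold change at its strongest window. Its libraries are not given one by one, so it was used as it stands. Spans of 24128 of its 40909 regions were deposited. The others were rebuilt from windows under single-read peaks, which returned 98.0% of the deposited spans exactly, 341 were placed by their best window and 2 not at all.

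Covered bases and peaks were counted in each union region (Python 3.11.15, pandas 2.3.3, numpy 2.4.6). The log2 of covered bases was fitted with limma 3.58.1 (R 4.3.3) over all 20108 shared regions, KO against WT, with no filter and no pseudocount. The step was tested on simulated data. With 3 libraries per genotype no exact permutation p can be below 0.1, so library means are given without a test. Mean coverage was solved from peak heights and p-values within 0.01 on the −log10 scale. It measures depth, and counting error of fragments is not in the values.

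The domains and gene lists were chosen with earlier results of these data known. Text names the 10 widest domains, up to 4 per list by width, the extremes of covered bases, peak number and signal, those next to the threshold, and, after their values were seen, list domains that passed, chains, and genes with several domains. Gene spans and sequences come from RefSeq GRCm38.p6, matched by symbol. Replicate numbers were not used to pair the libraries in the main fit. Alternatives were peaks called on single reads, a −log10 q minimum of 5, the 39264 strongest peaks, other widths, joined peaks, other scalings and leaving out each library. A few genes that the naming rule covers are not reported here.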

Additional observations from a re-analysis of the deposited data

How the results depend on the processing

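The domain count of 1221 was 2164, 778 and 501 at minimum widths of 6000, 10000 and 12000 bp and 175 when rebuilt from single-read peaks. It ranged from 1105 to 1193 with a library left out. Leaving out a library gave a covered-share difference of -10.2 to -7.69 points and a peak-number difference of 0.67 to 0.89. The peak-number difference was 0.46 with peaks up to 500 bp apart joined and -0.0917 with single-read peaks. Domains that fell numbered 146 after centring and ranged from 141 to 316 with a library left out. Domains that rose numbered 400 after centring, 114 with single-read peaks and 33 to 65 with a library left out. In the authors' deposited table, 1160 regions in domains were lower and 267 higher once the fold change had to reach 1 on the log2 scale either way, and 307 were lower and 499 higher when also centred on the median of all regions. The FDR stayed as deposited, without centring, so the higher count could not exceed the 499 found at the FDR alone. The 307 and 499 therefore give no balance of falls and rises.

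Centring also put these log2 differences above 0, against values below 0 as reported: Atxn1 0.0721, Hdac7 0.25, the domain nearest Mrpl39 0.21, Ccr6 0.16, Satb1 0.20, Dusp2 0.24, Bach2 0.23, 0.26, 0.21 and 0.13, Sdf4 0.24, Rbpj 0.13 and 0.0865, Foxp1 0.16 and 0.0076, Bhlhe40 0.25, Prdx2 (with Junb) 0.25, Il21r 0.10, Lef1 0.11, Ikzf1 0.0127 and Runx1 0.14. By construction centring adds the difference of library medians to every region. For the other changes the cause was not tested.

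The replicate block left 132 falls and 24 rises, the covered-share difference at -8.78 and the peak number at 0.77. Deviations of same-numbered KO and WT libraries from their group means correlated at 0.01, -0.01 and 0.01 over shared regions. No pairing by number was thus seen in covered bases, which cannot tell whether same-numbered libraries were prepared together.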
